A study of Mus musculus with 96 samples.

Results

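Fibroblasts (FBs) of the mouse heart were compared 14 days after myocardial infarction (D14) with FBs of hearts without operation (D0), using 4 small RNA-seq libraries of each, or 8 of the 96 libraries of the series. The members are these 8 libraries, chosen by their labels alone, and all 1978 mature miRNAs listed in them. Male C57Bl/6J mice of 12 to 14 weeks underwent permanent ligation of the left anterior descending coronary artery, or no operation for D0, so the operation and the infarct cannot be told apart. The study's methods name no transgene and no drug treatment, and a library holds the combined RNA of 3 mice, or fewer where a sample was missing. FBs were the cells that bound neither CD45 nor CD144 beads and then adhered to an uncoated dish, so they were defined by exclusion and adhesion, and their RNA was read after this plating step. The other 16 FB libraries (D1, D3, D7 and D28) entered the same model, and CD45-positive hematopoietic cells (HCs) served as a comparison.

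miRNAs are short RNAs that guide Argonaute proteins to messenger RNAs and lower their translation and stability. Target choice rests mainly on the seed, the bases 2 to 8 of the mature strand, so miRNAs with 1 seed can share targets. Each hairpin precursor can give a mature miRNA from its 5p and from its 3p arm, usually with 1 arm far more abundant. In the infarcted heart, FBs proliferate, turn into matrix-producing myofibroblasts and later settle in the scar. miR-21 is known as a miRNA of stressed FBs, and miR-29 as one that targets collagen messages.

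The sequences below are those on which the results turn, as listed by RefSeq for GRCm38.p6, written 5′ to 3′ with the seed in capitals. A mature sequence was matched for 474 of the 563 miRNAs tested. The first set holds the abundant miRNAs that were higher at D14.
miR-21a-5p: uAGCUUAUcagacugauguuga
miR-148a-3p: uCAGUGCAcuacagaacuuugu
miR-140-3p: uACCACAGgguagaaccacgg
miR-146b-5p: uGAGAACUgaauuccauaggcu
miR-224-5p: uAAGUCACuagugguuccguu
miR-10a-5p: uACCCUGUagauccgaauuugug
miR-10b-5p: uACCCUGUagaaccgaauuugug

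The second set holds miRNAs that were lower at D14, in groups with 1 seed each. The seed AGCACCA belongs to the miR-29 family, AGCAGCA to the miR-15 and miR-16 family, and UCAAGUA to the miR-26 family.
miR-29a-3p: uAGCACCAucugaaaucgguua
miR-29b-3p: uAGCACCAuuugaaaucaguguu
miR-29c-3p: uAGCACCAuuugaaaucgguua
miR-195a-5p: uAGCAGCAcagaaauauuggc
miR-15a-5p: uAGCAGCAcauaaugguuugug
miR-26b-5p: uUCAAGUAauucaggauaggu

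The third set holds the 2 pairs, among the miRNAs with a matched sequence, that have the same seed and changed in opposite directions.
miR-125b-5p: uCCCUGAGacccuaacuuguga
miR-351-5p: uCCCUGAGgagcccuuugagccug
miR-193a-3p: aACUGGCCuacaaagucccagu
miR-193b-3p: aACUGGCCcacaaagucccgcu

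The fourth set holds miRNAs of low abundance with the largest rises.
miR-31-5p: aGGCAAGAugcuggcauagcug
miR-182-5p: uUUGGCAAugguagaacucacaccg
miR-183-5p: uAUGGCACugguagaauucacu
miR-96-5p: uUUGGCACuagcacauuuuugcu
miR-344d-3p: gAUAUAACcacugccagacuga
miR-344e-3p: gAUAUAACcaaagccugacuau

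The libraries held 2217588 to 19196750 counts on mature miRNAs at D0 and 8902177 to 24196300 at D14. Replicate 2 of D0 was the shallowest, with 570 miRNAs detected against 814 to 852 in the other D0 libraries and 768 to 907 at D14. It had the lowest value of the 4 D0 libraries for 50.3% of the miRNAs tested and for 72.4% of those lower at D14, so values without it are given beside the named changes whose call depends on it. Levels are given as CPM, the counts scaled to the total of mature counts in a library. They measure a share, and fewer cells of a type cannot be told apart from less of a miRNA per cell. Equal replicate numbers at D0 and D14 did not mark pairs. The study's methods describe the 4 libraries of a day as separate pools of RNA samples, but call them biological replicates in one place and technical replicates in another, so the p-values measure the spread between these libraries, part of which may be technical.

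The label was checked against marker lists. The fibroblast markers (miR-199a, miR-199b and miR-214) summed to 49205 to 78323 CPM in the D0 libraries and to 66408 to 86400 CPM at D14, against a mean of 5038 and 11484 CPM in HCs. miR-199a-3p and miR-199b-3p had identical counts and entered this sum once. Of the 6 markers 2 rose, miR-199a-5p (log2 fold change 0.49) and miR-214-5p (0.57), but miR-199a-5p kept its call in 4 of the 8 fits that left out 1 library and lost it with the replicate number as a block. Markers of other cells were present at lower levels. The cardiomyocyte markers, mostly miR-1a-3p, summed to 2066 to 4882 CPM at D0 and to 781 to 5853 CPM at D14, and 0 of 5 tested passed the test at adjusted p under 0.05 by edgeR, 0 at an unadjusted p under 0.05 and 0 by DESeq2. The endothelial miR-126a arms summed to 20888 to 30916 CPM and to 15620 to 36886 CPM, and 0 of 2 passed by each of these 3 measures. The leukocyte markers summed to 222 to 236 CPM at D0 and to 91.4 to 186 CPM at D14, against means of 8356 and 11538 CPM in HCs, and 2 of 5 fell, 1 of them in every fit that left out 1 of the 8 libraries. The mural markers (miR-143 and miR-145a) summed to 25006 to 27931 CPM and to 22012 to 26170 CPM, with 1 of 4 lower. The erythroid markers summed to 854 to 2726 CPM at D0 and to 345 to 2365 CPM at D14, with 2 of 4 lower, 1 of them in every such fit. Over all miRNAs tested, 14.4% were higher and 10.3% lower at D14. Whether the counts in these short lists depart from those shares was not tested.

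Of 563 miRNAs tested, 139 changed between D0 and D14, or 24.7%. Of these 81 were higher (14.4% of those tested) and 58 lower (10.3%), at an adjusted p under 0.05 (edgeR, quasi-likelihood test, Benjamini-Hochberg adjustment). The 4 and 4 libraries did not overlap for 136 miRNAs (24.2%), 91 of them higher at D14 (16.2%) and 45 lower (7.99%). Both criteria held for 88 miRNAs, 63 higher and 25 lower. Rises and falls differed in abundance. The median of the 8-library mean was 7.74 CPM among the rises and 41.1 CPM among the falls. Of 155 miRNAs whose mean reached 100 CPM, 18 rose and 23 fell, and among the rest of the 563 tested 63 rose and 35 fell. The pooled depth was 51716822 counts at D0 and 66403997 at D14, and the part of depth in this difference was not tested. The median log2 fold change was 1.24 among the rises and -0.83 among the falls, and -0.01 over all miRNAs tested. A total of 81 changes, 56 higher and 25 lower, kept their call whichever of the 8 libraries was left out. For the lists below, the number of such calls is given beside a count where it is smaller. Each list count is to be read against the 14.4% higher and 10.3% lower over all miRNAs tested, and no list was tested as a set.

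**Figure D1:**
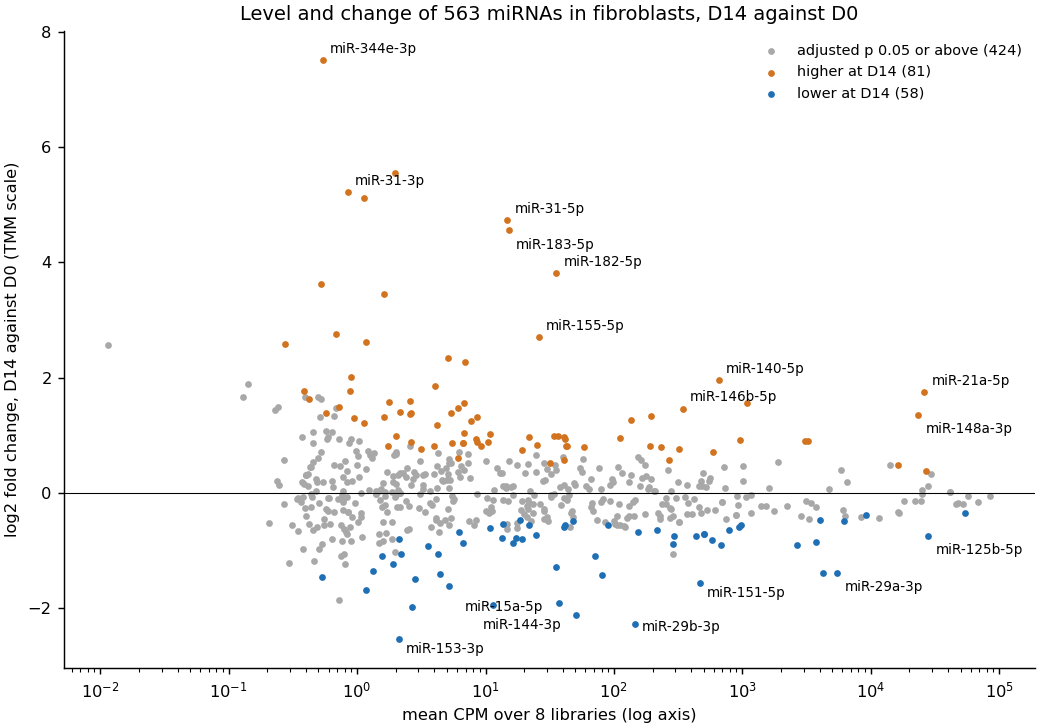
Each point is 1 of the 563 miRNAs tested, with its mean CPM over the 8 libraries on a log axis and its log2 fold change at D14 against D0 on the vertical axis. The 16 rises of at least 2 on the log2 scale all lie under 100 CPM, whereas miR-21a-5p, miR-148a-3p, miR-140-5p and miR-146b-5p are the labelled rises of abundant miRNAs.

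Among the abundant rises, miR-21a-5p had 9251, 7588, 14744 and 15248 CPM in the D0 libraries and 26846, 33383, 54069 and 47351 CPM at D14. All D14 libraries lay above all D0 libraries, and the fold change was 3.35 (log2 1.75 ± 0.25 SE, adjusted p = 9.71e-06 by edgeR). Its hairpin lies at chr11:86584067-86584158 on the minus strand (GRCm38.p6), within an exon of Vmp1. miR-148a-3p, a miRNA with the seed of miR-148b and miR-152, varied least between replicates, with 13666, 12588, 13074 and 12374 CPM at D0 and 31595, 31012, 38307 and 34384 CPM at D14. It was 2.56-fold higher (log2 1.35 ± 0.15 SE, adjusted p = 2.95e-07 by edgeR). Of the 6 members of the miR-148 and miR-152 list 2 rose, both arms of miR-148a, and all 6 had log2 fold changes above 0 (median 0.32). The difference from the paralogs was not tested. miR-148a-5p reached 0.98 on the log2 scale.

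miR-140, which is encoded in Wwp2 and is best known from cartilage, rose on both arms. miR-140-5p had 251, 196, 291 and 309 CPM at D0 and 820, 732, 1264 and 1365 CPM at D14, the largest rise among the abundant miRNAs whose groups did not overlap (3.89-fold, log2 1.96 ± 0.33 SE, adjusted p = 0.000115 by edgeR). miR-140-3p had 490, 544, 568 and 548 CPM at D0 and 1664, 1178, 1899 and 1763 CPM at D14 (2.94-fold, log2 1.56 ± 0.24 SE). Of miR-140 and miR-455, which is often studied beside it, 2 of 4 arms rose, and miR-455-3p had a log2 fold change of 0.14 (adjusted p = 0.694 by edgeR).

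Among miRNAs known from inflammation, 5 of 7 tested rose, against 14.4% of all miRNAs tested, and none fell. The 5 were both arms of miR-146b, both arms of miR-147 and miR-155-5p, and 2 of them kept their call whichever library was left out. miR-146b-5p, which like miR-146a restrains signaling from Toll-like receptors, had 185, 181, 149 and 208 CPM at D0 and 538, 470, 597 and 433 CPM at D14 (2.76-fold, log2 1.47 ± 0.19 SE, adjusted p = 2.13e-06 by edgeR). miR-146a-5p, which has the same seed and differs from it only near the 3′ end, had a log2 fold change of 0.45 (adjusted p = 0.0733). miR-155-5p, a miRNA induced by inflammatory signals, had 8.91, 3.16, 6.63 and 7.03 CPM at D0 and 50.3, 30.7, 61.7 and 39.1 CPM at D14 (6.50-fold, log2 2.70 ± 0.29 SE, adjusted p = 2.95e-07). The leukocyte marker sum was lower at D14 in all 4 libraries than in any D0 library. It was mostly miR-150-5p, with a mean of 161 CPM at D0 and 125 CPM at D14. At D0 this miRNA had a mean of 2372 CPM in endothelial cells and 2733 CPM in HCs, so it does not mark leukocytes alone. The part of leukocytes in the rises of miR-146b-5p and miR-155-5p was not tested.

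The other abundant rises were smaller. miR-10a-5p and miR-10b-5p, which lie in Hox clusters and differ by 1 base, had almost equal levels in every library, from 1732 to 2546 CPM and from 1704 to 2407 CPM at D0, and from 3487 to 5165 CPM and from 3370 to 4895 CPM at D14. Their log2 fold changes were 0.91 ± 0.22 SE and 0.90 ± 0.21 SE, and the counting may have split reads between them. Of the 7 miRNAs of Hox clusters 4 rose (3 whichever library was left out), and miR-10a-3p was the third of them. In the list of miR-449 and of miR-34, a p53 target that restrains the cell cycle, 5 of 6 arms rose, all of miR-34 (4 whichever library was left out). miR-34c-5p had 500, 402, 834 and 840 CPM at D0 and 920, 1083, 1532 and 1487 CPM at D14 (1.89-fold, log2 0.92 ± 0.24 SE), and miR-34a-5p reached 0.94 on the log2 scale. miR-224-5p, from an intron of Gabre on the X chromosome, had 67.5 to 98.3 CPM at D0 and 156 to 222 CPM at D14 (2.39-fold, log2 1.26 ± 0.22 SE).

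In the X-linked cluster from miR-322 to miR-450, 5 of 11 arms rose, 2 of them whichever library was left out, and the other 6 had positive log2 fold changes that missed the threshold. miR-351-5p had 116, 138, 74.7 and 104 CPM at D0 and 414, 151, 317 and 231 CPM at D14 (2.52-fold, log2 1.34 ± 0.27 SE, adjusted p = 0.000885 by edgeR). Replicate 2 of D14 was the lowest of its group, close to the D0 libraries. It was also the lowest for miR-322-3p (81.4 CPM, against 135 to 203 CPM in the other D14 libraries and 54.7 to 89.0 CPM at D0) and miR-450a-5p (135 CPM, against 237 to 356 and 112 to 160 CPM), so the groups of these 2 overlapped. Their log2 fold changes were 0.96 and 0.81.

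**Figure D2:**
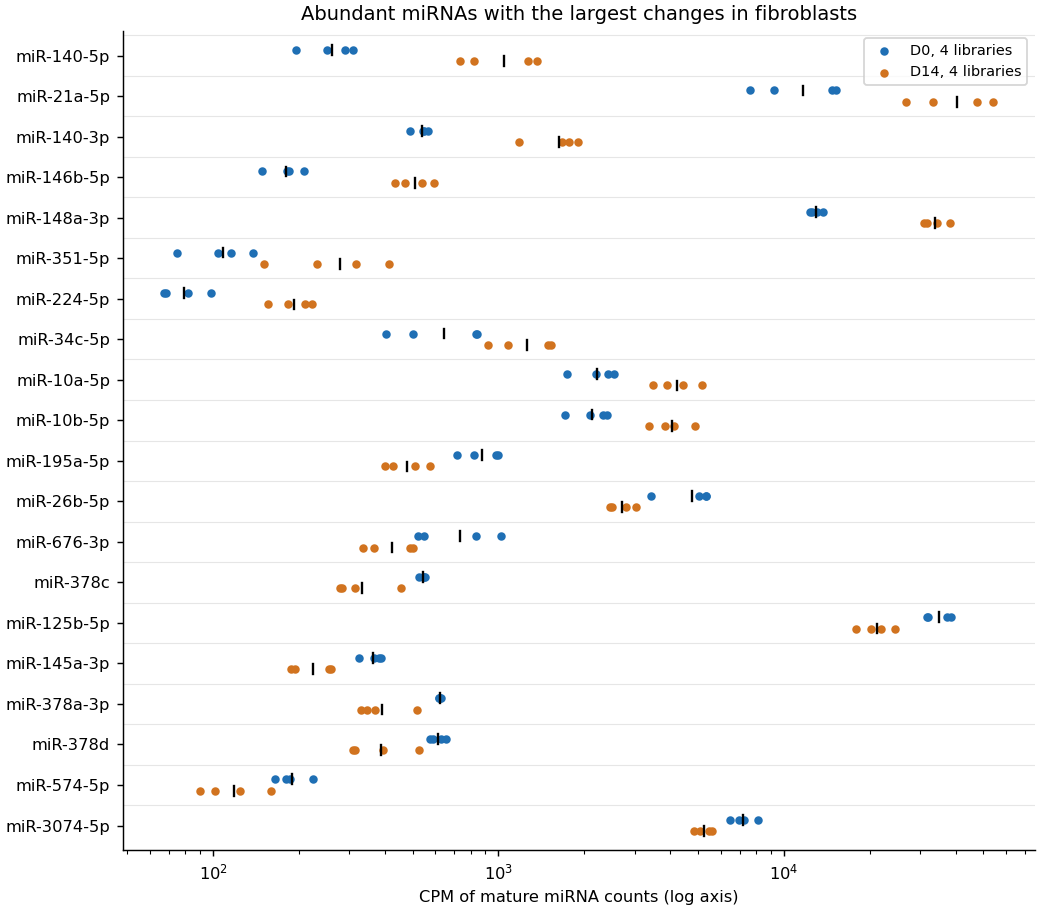
Points are the CPM of single libraries on a log axis, 4 at D0 and 4 at D14, and the vertical strokes are group means. Among changes whose groups did not overlap and whose mean reached 100 CPM, the 10 largest of 15 rises and of 13 falls are shown. The rises shown span 0.90 to 1.96 and the falls shown -0.90 to -0.49 on the log2 scale.

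Of the 13 falls of abundant miRNAs whose groups did not overlap, the 10 largest lay between -0.90 and -0.49 on the log2 scale. Larger falls whose groups overlapped are given further on. miR-195a-5p, a member of the miR-15 and miR-16 family that lowers cell cycle proteins, had 820, 715, 996 and 979 CPM at D0 and 426, 574, 401 and 509 CPM at D14, a 1.87-fold lower level (log2 -0.90 ± 0.18 SE, adjusted p = 0.000885 by edgeR). Of the 6 members of this family 4 fell, 2 of them whichever library was left out. miR-16-5p had a log2 fold change of -0.58 and miR-497a-5p, from the same locus as miR-195a on chromosome 11, -0.89, and miR-322-5p, which has the same seed, stood at 0.63 (adjusted p = 0.107). miR-26b-5p had 5340, 3417, 5315 and 5021 CPM at D0 and 2458, 2800, 2502 and 3033 CPM at D14 (log2 -0.85 ± 0.16 SE, adjusted p = 0.00044), and miR-26a-5p, which differs from it at few bases, fell from 54756 to 69203 CPM at D0 to 46174 to 50717 CPM at D14 (log2 -0.34 ± 0.12 SE, adjusted p = 0.042). miR-26a-5p kept its call in 2 of the 8 fits that left out 1 library, and without replicate 2 of D0 its adjusted p was 0.28.

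miR-125b-5p, which is read from 2 hairpins, had 38563, 37196, 32080 and 31600 CPM at D0 and 21848, 24523, 17893 and 20234 CPM at D14. It was 1.68-fold lower (log2 -0.75 ± 0.16 SE, adjusted p = 0.00138 by edgeR), whereas miR-351-5p, which starts with the same 8 bases, was higher. miR-125b-5p was the single member that fell of the 9 in the list of miR-99, miR-100 and miR-125, and none of them rose.

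The miR-378 family, which is encoded in part in the metabolic coactivator gene Ppargc1b and is abundant in muscle, fell in 4 of 5 members (3 whichever library was left out). miR-378a-3p had 628, 617, 619 and 622 CPM at D0 and 368, 346, 519 and 329 CPM at D14 (log2 -0.71 ± 0.18 SE, adjusted p = 0.00527 by edgeR). miR-378c and miR-378d, which are near copies of each other, followed it in every library (log2 -0.75 and -0.70), so reads may have been counted for more than 1 of them. Replicate 3 of D14 was the highest of its group for all 3. It also had the most miR-1a-3p, a cardiomyocyte miRNA, with 5742 CPM against 766 to 1941 CPM in the other D14 libraries and 2033 to 4817 CPM at D0. The part of this in the result was not tested.

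The others of the 10 largest falls without overlap were miR-145a-3p (log2 -0.74), miR-676-3p (-0.81), miR-574-5p (-0.68) and miR-3074-5p (-0.49). Without replicate 2 of D0 the last 3 lost their call, with adjusted p of 0.123, 0.105 and 0.144. miR-3074-5p is the reverse complement of part of miR-24-3p, which also fell (log2 -0.38) but kept its call in 1 of the 8 fits that left out 1 library. Whether alignments to the reverse strand were counted is not given in the sources used here, so the 2 cannot be told apart.

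The miR-29 family held 3 of the 4 largest falls among miRNAs whose mean reached 100 CPM, although the groups overlapped because of 1 library. miR-29a-3p had 7279, 3103, 10991 and 10285 CPM at D0 and 2131, 2983, 3113 and 4076 CPM at D14. Replicate 2 of D0 lay within the range of D14, and the other 3 lay above it. The log2 fold change was -1.39 ± 0.29 SE (adjusted p = 0.000942 by edgeR), and -1.56 ± 0.26 SE without that library (adjusted p = 9.56e-05). miR-29c-3p had 5130, 2289, 8792 and 8087 CPM at D0 and 1613, 2374, 2356 and 3139 CPM at D14 (log2 -1.39 ± 0.30 SE, adjusted p = 0.00158), and -1.56 without that library.

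miR-29b-3p fell the most of the 3, with 238, 34.3, 397 and 286 CPM at D0 and 26.4, 51.1, 46.9 and 79.3 CPM at D14. Its log2 fold change was -2.27 ± 0.50 SE (adjusted p = 0.0016 by edgeR), or -2.51 ± 0.42 SE without replicate 2 of D0. Without it the groups of miR-29a-3p, miR-29b-3p and miR-29c-3p did not overlap. The family is encoded at chr6:31062660-31063093 on the minus strand (miR-29a and miR-29b) and at chr1:195037040-195037634 on the plus strand (miR-29b and miR-29c). Of its 7 tested arms 4 fell (3 whichever library was left out) and none rose, and the median of the list was -1.10, against -0.01 over all miRNAs tested.

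The same library decided the overlap of 3 other falls. miR-15a-5p had 52.1, 6.76, 97.8 and 77.4 CPM at D0 and 10.2, 13.7, 16.3 and 24.3 CPM at D14 (log2 -1.92 ± 0.48 SE, adjusted p = 0.00483 by edgeR). miR-151-5p had 966, 258, 820 and 732 CPM at D0 and 174 to 292 CPM at D14 (log2 -1.55 ± 0.33 SE). miR-181c-5p had 116, 39.7, 120 and 110 CPM at D0 and 36.5 to 55.3 CPM at D14 (log2 -1.09 ± 0.28 SE). With only the 8 libraries in the fit, the adjusted p of miR-181c-5p was 0.0518 by edgeR. In each of the 3, replicate 2 lay within or under the D14 range. Without it the log2 fold changes were -2.15, -1.72 and -1.23 and the groups did not overlap.

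Among the miRNAs of low abundance, 16 rose by at least 2 on the log2 scale. Those among them outside the inflammation and epithelial lists were chosen for description after their values were seen. miR-31-5p had 1.04, 1.80, 1.09 and 0.781 CPM at D0 and 29.0, 22, 35.4 and 27.2 CPM at D14. The lowest D14 library held more than any D0 library, and the fold change was 26.5 (log2 4.73 ± 0.43 SE, adjusted p = 1.83e-08 by edgeR, the smallest of the named miRNAs). Its other arm, miR-31-3p, had 0 to 0.0781 CPM at D0 and 0.944 to 2.35 CPM at D14 (log2 5.21 ± 0.95 SE). The hairpin lies at chr4:88910557-88910662 on the minus strand, in an exon of the lincRNA AL805899.1.

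The 3 miRNAs of the cluster at chr6:30165918-30169737 on the minus strand, which are best known from sensory cells, all rose. miR-182-5p had 4.32, 4.06, 5.32 and 4.37 CPM at D0 and 90.9, 25.4, 117 and 34.0 CPM at D14 (14.0-fold, log2 3.81 ± 0.44 SE, adjusted p = 4.37e-07 by edgeR). miR-183-5p had 1.04, 2.25, 1.26 and 0.937 CPM at D0 and 45.6, 7.98, 50.2 and 12.4 CPM at D14 (log2 4.57 ± 0.56 SE). miR-96-5p had 0 to 0.400 CPM at D0 and 3.49, 0.786, 6.35 and 1.57 CPM at D14 (log2 3.46 ± 0.56 SE). For all 3, replicates 1 and 3 of D14 were higher than replicates 2 and 4, and every D14 library was above every D0 library.

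Members of the miR-344 family, with hairpins on the minus strand of chromosome 7, rose too. miR-344-3p had 1.25, 2.25, 1.43 and 2.03 CPM at D0 and 7.48, 2.81, 17.2 and 6.12 CPM at D14 (log2 2.35 ± 0.39 SE, adjusted p = 9.03e-05 by edgeR). miR-344d-3p had 0.156 CPM in 1 D0 library and 0 in the other 3, and 0.951 to 3.27 CPM at D14. miR-344e-3p was at 0 in all 4 D0 libraries and had 1.53, 0.449, 1.89 and 0.455 CPM at D14, from 73 counts. With a floor of 3 counts over the pooled D0 libraries (0.058 CPM), it was at least 19.0-fold higher. miR-344b-3p (log2 2.76) overlapped between groups because replicate 2 of D0 had 0.902 CPM. miR-344-3p is read from 2 hairpins and miR-344d-3p from 3, and miR-344-3p and miR-344b-3p share most of their sequence, so their counts may not be separate.

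miR-193b-3p had 2.87, 1.35, 2.69 and 1.80 CPM at D0 and 13.5, 7.08, 14.3 and 11.6 CPM at D14 (4.83-fold, log2 2.27 ± 0.33 SE, adjusted p = 1.31e-05 by edgeR). miR-193a-3p has the same seed and moved the other way, from 1.98, 0.902, 2.23 and 1.95 CPM to 0.363, 0.449, 0.768 and 0.744 CPM (log2 -1.69, adjusted p = 0.0129). miR-365-3p also rose (log2 0.98) and is read from 2 hairpins. One neighbours miR-193b on chromosome 16 and the other lies on chromosome 11, as does miR-193a, so its reads cannot be assigned to either locus. The miR-200 family and miR-141, which keep epithelial identity, rose in 4 of 5 members (3 whichever library was left out) from at most 6.12 CPM at D0. miR-200b-3p had 1.89 to 4.45 CPM at D0 and 4.94 to 15 CPM at D14 (log2 1.57 ± 0.31 SE), and miR-429-3p 0.171 to 0.573 CPM and 1.31 to 1.48 CPM (log2 2.01 ± 0.44 SE). The summed epithelial markers were at 10.7 to 16.2 CPM at D0 and 15.8 to 45.0 CPM at D14, against means of 173 and 276 CPM in HCs. The HC libraries ranged from 0 to 259 CPM at D0 and from 246 to 301 CPM at D14. One HC library at D0 held only 18286 counts, against at least 26449253 in the others, so the 0 and the D0 mean may reflect depth. The part of other cells in the rises in FBs was not tested.

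The remaining rises of this size were miR-1983 (log2 5.56), miR-205-5p (3.62), miR-129b-3p (2.63) and miR-6539 (2.58), each with at most 6.76 CPM in any library. The call of miR-6539 held in 5 of the 8 fits that left out 1 library. miR-129b-3p is in part the reverse complement of miR-129-5p. The 3 falls of at least 2 were miR-29b-3p, miR-144-3p and miR-153-3p. miR-153-3p had 3.49, 1.35, 5.43 and 3.83 CPM at D0 and 0.436, 0.899, 0.716 and 0.703 CPM at D14 (log2 -2.53 ± 0.40 SE, adjusted p = 5.00e-05 by edgeR).

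**Figure D3:**
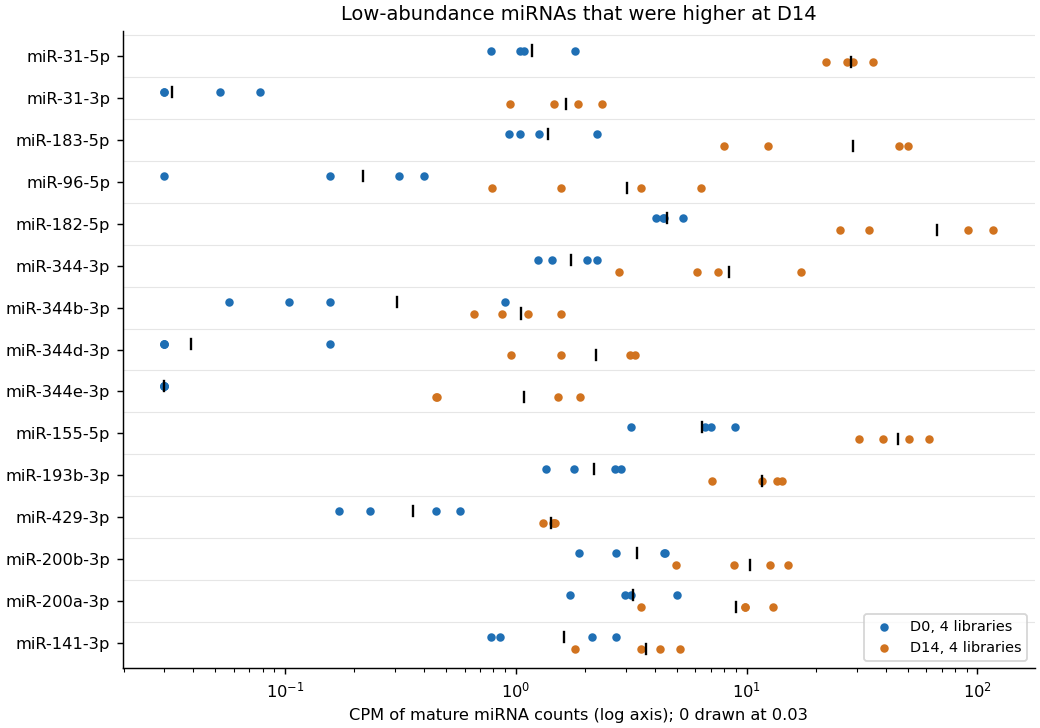
Points are the CPM of single libraries on a log axis, 4 at D0 and 4 at D14, with group means as strokes and values of 0 drawn at 0.03. The D14 libraries of miR-182-5p, miR-183-5p and miR-96-5p fall into a higher and a lower pair, while those of miR-31-5p lie between 22 and 35.4 CPM.

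miRNAs of other cells that fell included the leukocyte miR-142a. miR-142a-5p had 15.9, 9.02, 32.1 and 14.5 CPM at D0 and 7.34, 2.58, 6.60 and 3.31 CPM at D14 (log2 -1.94 ± 0.44 SE, adjusted p = 0.00231 by edgeR), and miR-142a-3p had a log2 fold change of -1.29 (adjusted p = 0.0458). The call of miR-142a-3p held in 2 of the 8 fits that left out 1 library, and its adjusted p reached 0.228 over the alternatives. The erythroid miR-144-3p had 83.0, 32.0, 135 and 78.5 CPM at D0 and 28.2, 5.28, 33.1 and 13.0 CPM at D14 (log2 -2.11 ± 0.49 SE), while miR-451a from the same transcript had -1.05 (adjusted p = 0.156).

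Of the imprinted Dlk1-Dio3 cluster of chromosome 12, a large miRNA cluster active in development, 12 of 52 tested arms rose, against 14.4% of all miRNAs tested, and 1 fell (miR-376b-5p, log2 -0.61), against 10.3%. Of the 12 rises 6 kept their call whichever library was left out, and the fall of miR-376b-5p held in 3 of these 8 fits. The median was 0.41, and 42 of the 52 had a log2 fold change above 0. miR-431-5p had 16, 10.8, 14.3 and 16.4 CPM at D0 and 36.3, 31.0, 27.2 and 22.4 CPM at D14 (log2 0.97 ± 0.19 SE, adjusted p = 0.000799 by edgeR). miR-409-5p had a log2 fold change of 0.80, and its other arm miR-409-3p 0.63 (adjusted p = 0.106), or 0.89 without replicate 2 of D0 (adjusted p = 0.0247). miR-127-3p, the most abundant named member, had 4519 to 5438 CPM at D0 and 5019 to 7888 CPM at D14 (log2 0.40, adjusted p = 0.0797), or 0.53 without replicate 2 of D0 (adjusted p = 0.025).

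In the miR-17-92 cluster and its paralogs, which drive proliferation, 3 of 17 fell, miR-106b-5p, miR-92a-3p and miR-17-3p, against 10.3% of all miRNAs tested, and none rose. These calls held in 3, 2 and 3 of the 8 fits that left out 1 library. Without replicate 2 of D0 the adjusted p of miR-92a-3p was 0.178, and with the replicate number as a block miR-106b-5p and miR-92a-3p lost their call. The median of this list was -0.43. For miR-132 and miR-212, 2 of 4 arms rose, and miR-212-5p had a log2 fold change of 0.81. In the list of miR-23, miR-27 and miR-24, 1 of 9 fell (miR-24-3p), and in the miR-181 family 1 of 7, in both cases with none higher and near the 10.3% of all miRNAs tested that fell. Of the let-7 family (9 tested), the miR-30 family (7), miR-221 and miR-222 (4), the miR-130 and miR-301 family (4), the miR-7 family (3) and the hypoxia miRNA miR-210 (2 arms), 0 passed the test by edgeR. At an unadjusted p under 0.05, edgeR gave 2 of the let-7 family, 1 of the miR-30 family, 2 of miR-221 and miR-222, 1 of the miR-7 family and 0 of the other lists, and DESeq2 called 1 of miR-221 and miR-222 and 0 of the others.

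**Figure D4:**
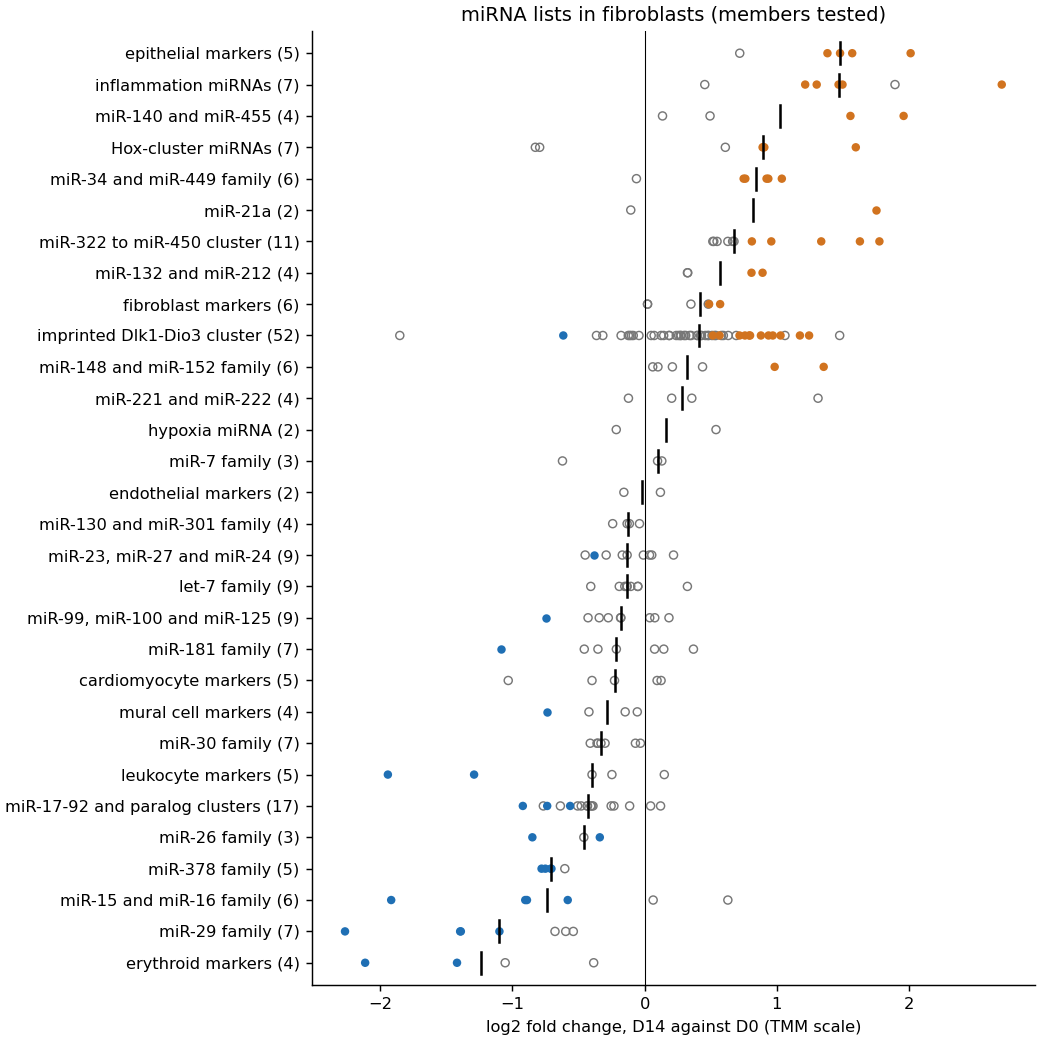
Each row is a miRNA list with the number of members tested, each circle a member at its log2 fold change (D14 against D0), filled orange or blue where it rose or fell in the test and open otherwise, and the stroke is the median. The miR-29 family, the miR-15 and miR-16 family and the miR-378 family lie mostly to the left, and the inflammation, miR-34 and Hox-cluster lists mostly to the right.

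Of the 5 miRNAs highest in CPM at D14, 1 passed the test. let-7a-5p stood at 80637 to 90402 CPM at D14 and 82558 to 92320 CPM at D0 (log2 -0.05 ± 0.11 SE, adjusted p = 0.775 by edgeR). let-7c-5p (-0.15), let-7f-5p (-0.05) and miR-99a-5p (-0.18) did not pass the test either, and miR-26a-5p, the fifth of this group, fell as given above. miR-143-3p, miR-126a-3p and miR-30a-5p, further miRNAs of high level, had adjusted p of 0.418, 0.714 and 0.161.

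Among the 474 tested miRNAs with a matched sequence, 49 seeds were shared by at least 2, and 11 of these seeds had at least 2 changed members. In 6 of the 11 all changed members were higher, in 3 all were lower, and in 2 the directions differed. The latter were CCCUGAG (miR-125b-5p and miR-351-5p) and ACUGGCC (miR-193a-3p and miR-193b-3p), shown among the sequences above. AGCACCA had 3 of 3 members lower, AGCAGCA 4 of 6 lower, and UCAAGUA 2 of 2 lower. The median GC content of the mature sequences was 47.8% over all tested and 45.5% among both the rises and the falls.

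The ratio of the 5p to the 3p arm changed for 5 of 147 hairpins (3.4%), 4 higher (2.72%) and 1 lower (0.68%), by limma on log2 ratios with a pseudocount of 0.5. The miR-21a ratio was 10.91, 12.23, 10.73 and 10.95 on the log2 scale at D0 and 12.46, 13.07, 12.56 and 12.97 at D14, a change of 1.56 ± 0.33 SE (adjusted p = 0.00957). The 5p arm rose as given above, whereas miR-21a-3p had 1.35 to 8.63 CPM at D0 and 3.82 to 8.90 CPM at D14 (log2 -0.10, adjusted p = 0.873 by edgeR). The miR-181c ratio was 2.67, 1.4, 2.32 and 1.98 at D0 and 0.58, 1.09, 0.36 and 0.75 at D14, a change of -1.40 ± 0.30 SE (adjusted p = 0.00957 by limma). The miR-299a ratio changed by 0.66 ± 0.17 SE (adjusted p = 0.026 by limma), and miR-130a and miR-376a, with under 50 counts on an arm and chosen after their values were seen, by 1.37 and 2.62. With only the 8 libraries in the fit 0 hairpins passed, although 29 had an unadjusted p under 0.05, and without replicate 3 of D0 0 passed as well, with 25 at an unadjusted p under 0.05.

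The position of D14 in the time course was read from the same model. Between D7 and D14, 37 miRNAs changed (6.57%), 16 higher (2.84%) and 21 lower (3.73%) at D14. miR-381-3p of the Dlk1-Dio3 cluster fell from 617 ± 101 CPM (SD, n = 4) at D7 to 214 ± 31.4 CPM at D14 (log2 -1.33 ± 0.21 SE), next to 177 ± 22.4 CPM at D0. miR-409-3p (-1.19) and miR-543-3p (-0.95) of the same cluster fell too, and miR-140-3p (0.82), miR-221-3p (0.73) and miR-23b-3p (0.70) rose. miR-21a-5p had 53892 ± 12048 CPM at D3, 37220 ± 5570 CPM at D7 and 40412 ± 12492 CPM at D14, and D14 did not pass the test against D7 (log2 0.31 ± 0.24 SE, adjusted p = 0.46 by edgeR).

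From D14 to D28, 67 miRNAs changed (11.9%), 22 higher (3.91%) and 45 lower (7.99%) at D28. miR-351-5p fell to 94.2 ± 26.7 CPM (SD, n = 4; log2 -1.41 ± 0.27 SE), next to 108 ± 26.2 CPM at D0, and miR-322-3p (-1.11) and miR-450a-5p (-1.05) of its cluster fell as well. miR-29a-3p rose to 5220 ± 927 CPM (0.93 ± 0.28 SE), between its D14 and D0 means, as did miR-29c-3p (0.93), and miR-185-5p rose by 0.91. miR-182-5p fell from 66.8 ± 44.3 to 11.2 ± 4.17 CPM (log2 -2.42 ± 0.39 SE). miR-148a-3p fell from 33824 ± 3331 to 18009 ± 3497 CPM (log2 -0.74 ± 0.15 SE), and miR-195a-5p rose from 478 ± 79.1 to 739 ± 57.3 CPM (0.79 ± 0.18 SE). For miR-31-5p, with 36.1 ± 21 CPM at D28, and miR-140-5p, with 912 ± 437 CPM, D28 did not pass the test against D14 (adjusted p = 0.26 and 0.97 by edgeR).

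**Figure D5:**
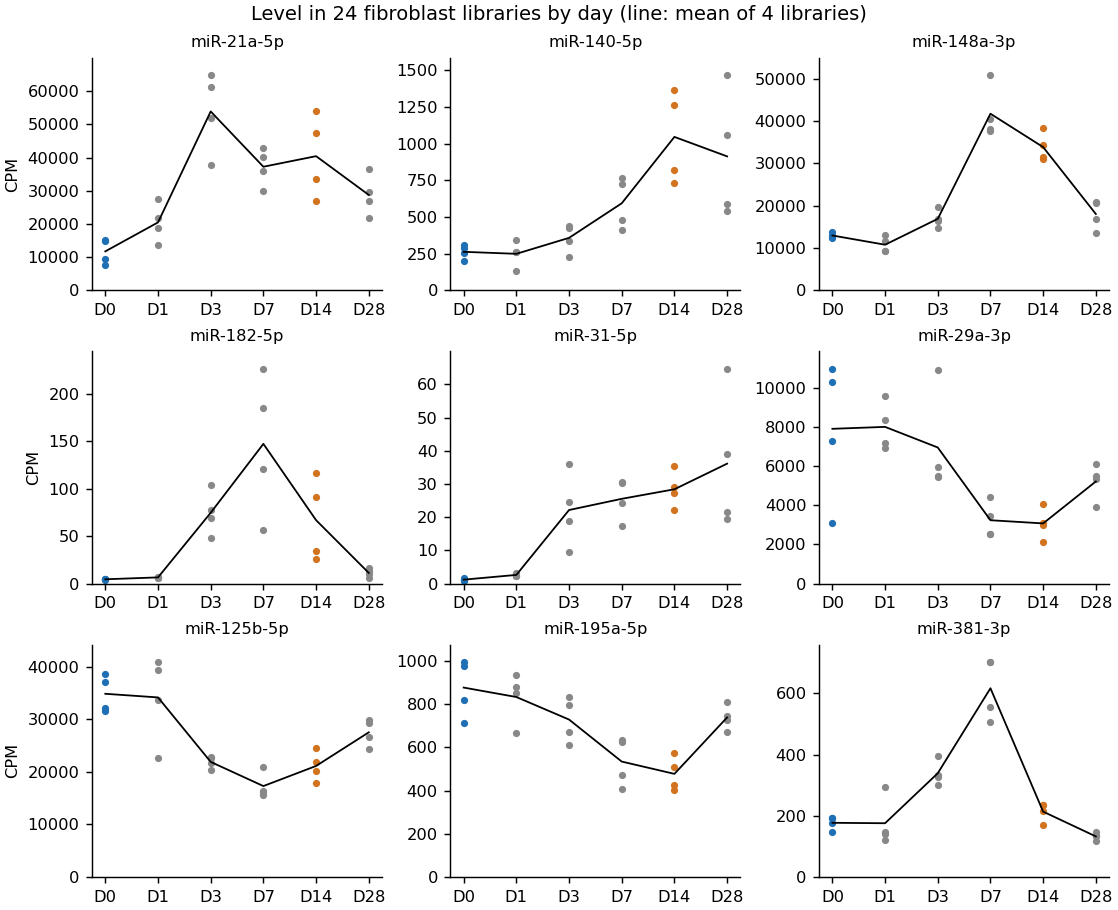
Each panel gives the CPM of 1 miRNA on a linear axis from 0 in the 24 FB libraries by day, with D0 in blue, D14 in orange and the mean of 4 libraries as a line. miR-148a-3p and miR-182-5p have their highest mean at D7, miR-140-5p at D14 and miR-31-5p at D28, while miR-29a-3p, miR-125b-5p and miR-195a-5p have a lower mean at D14 than at D0 and D28.

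The change in FBs was set against that in HCs with an interaction term. The study describes the pools of a time point as coming from the same animals across cell types. The fit treated FB and HC libraries as independent, so this matching was not used. The change differed for 96 of 696 miRNAs (13.8%), 45 with the more positive change in FBs (6.47%) and 51 with the more negative (7.33%). Replicate 3 of HCs at D0 held only 18286 counts, against at least 26449253 in the other 3, and without it 99 miRNAs differed, 91 of them the same. The HC libraries also held cardiomyocyte markers at a mean of 110414 CPM at D0 and 56941 CPM at D14, and the part of this in the differences was not tested. miR-155-5p had a mean of 163 CPM at D0 and 166 CPM at D14 in HCs, and its change in FBs was larger by 2.96 ± 0.43 SE on the log2 scale (adjusted p = 4.70e-06 by edgeR). miR-31-5p had 3.84 and 13.5 CPM in HCs (difference 3.56 ± 0.51 SE), and for miR-182-5p the difference was 2.62 ± 0.50 SE.

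Among miRNAs whose mean over the 16 FB and HC libraries of both days reached 100 CPM, the 3 largest positive differences were for miR-351-5p (1.67), miR-322-3p (1.5) and miR-140-3p (1.47). The 3 largest negative ones were for miR-142a-5p (-2.54), miR-142a-3p (-1.89) and miR-17-5p (-1.10), of which both arms of miR-142a reached this level through the HC libraries. For miR-148a-3p the difference was 1.07 ± 0.30 SE (adjusted p = 0.0123 by edgeR). For miR-21a-5p, which was at 36866 CPM at D0 and 114377 CPM at D14 in HCs, it was 0.22 ± 0.31 SE (adjusted p = 0.667), and for miR-29a-3p -1.13 ± 0.42 SE (adjusted p = 0.0631). Without the HC library of 18286 counts the difference for miR-29a-3p was -1.68 ± 0.38 SE (adjusted p = 0.00202), and miR-29c-3p (-1.63), miR-29b-3p (-2.41), miR-15a-5p (-2.38) and miR-450a-5p (1.07) passed the test as well.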

How the data were processed

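Small RNA of FBs at D0 and D14 was measured in 4 libraries each, made with the NEBNext kit from 150 ng of RNA and 15 PCR cycles. The authors trimmed adaptors, removed reads under 18 nt and counted reads per mature miRNA of miRBase in nf-core's smRNA-seq workflow. The deposited values are raw counts per mature miRNA. The submitters' processing notes name Trim Galore, Bowtie2, SAMtools and mm10, without versions. Counting of reads that match several miRNAs is not given in the sources used here, and 123 miRNAs, in 38 sets, had counts identical to another in all FB libraries. Reads without a match, 27.7% to 36.0% of the total at D0 and D14, were left out.

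CPM were computed from the mature counts. Changes were tested with edgeR 4.0.16 (R 4.3.3) on all 24 FB libraries with TMM factors and filterByExpr, which kept 563 of 1978 miRNAs, 814 being at 0 in all 8 libraries. HCs entered a joint fit. Arm ratios were tested with limma 3.58.1 where each arm of a hairpin averaged 10 counts or more. The scripts were tested on simulated data. Named miRNAs were the 10 largest rises and falls whose groups did not overlap and whose mean reached 100 CPM, the 5 of highest CPM at D14, list examples, and the 3 largest per further comparison, plus those stated as chosen after their values were seen. Members and lists were chosen with earlier results of these data known. Positions came from GRCm38.p6. Alternatives were DESeq2 1.42.0, other scalings, no filter, a replicate block, the compared libraries alone, a log2 fold change of at least 1, other arm settings and each library left out in turn. The hairpin tables and total RNA-seq were not used here. The correlation of deviations between libraries of equal number at D0 and D14 was -0.07, 0.09, 0.18 and 0.41, so the number was not taken as a pairing. The floor of 3 counts covers counting error only, whereas SE and SD values include the spread between libraries. The study left out 1 FB library of D0 without naming it, and all 4 were kept here.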

Additional observations from a re-analysis of the deposited data

Results flagged for a closer look

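Of 196 groups of 4 libraries, 9 held a library far from the other 3, and chance gives about 1 in 20. Replicate 2 of D0 was such a library for 5 of them, with a low value for miR-26b-5p (3420 CPM, against 5020 to 5340 CPM in the others) and miR-181c-5p (39.7 CPM, against 110 to 120 CPM) and a high one for miR-344b-3p (0.902 CPM, against at most 0.156 CPM), the log2 arm ratio of miR-21a (12.2, against 10.7 to 11.0) and that of miR-299a (-1.92, against -2.15 to -2.12). Replicate 1 of D0 was the only D0 library with counts for miR-344d-3p (0.156 CPM) and miR-205-5p (0.208 CPM). At D14, replicate 2 was low for miR-143-3p (20900 CPM, against 24400 to 24900 CPM) and replicate 1 high for miR-92a-3p (105 CPM, against 60.1 to 67.4 CPM).

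The change from D0 to D14 differed between FBs and HCs, by the interaction term in edgeR, for 29 of 95 miRNAs named. The median difference over all 696 miRNAs was -0.23 on the log2 scale. The change in FBs was the more positive for miR-1983 (difference 4.72), miR-344d-3p (4.07), miR-183-5p (3.70), miR-31-5p (3.56), miR-155-5p (2.96), miR-182-5p (2.62), miR-96-5p (2.21), miR-193b-3p (1.73), miR-141-3p (1.70), miR-351-5p (1.67), miR-322-3p (1.5), miR-200b-3p (1.48), miR-140-3p (1.47), miR-146b-5p (1.43), miR-200a-3p (1.4), miR-429-3p (1.35), miR-126a-3p (1.34), miR-140-5p (1.29), miR-148a-3p (1.07) and miR-143-3p (0.89). It was the more negative for miR-142a-5p (-2.54), miR-147-3p (-2.27), miR-142a-3p (-1.89), miR-21a-3p (-1.67), miR-106b-5p (-1.55), miR-17-5p (-1.10), miR-214-3p (-0.84), miR-199a-5p (-0.84) and miR-221-3p (-0.70). Without the HC library of 18286 counts, 27 of the 29 still differed, and miR-221-3p (adjusted p = 0.0604) and miR-199a-5p (0.0592) did not, while 5 further named miRNAs did (miR-29a-3p, miR-29b-3p, miR-29c-3p, miR-15a-5p and miR-450a-5p). In FBs themselves, miR-126a-3p (log2 0.12, adjusted p = 0.714 by edgeR) and miR-143-3p (-0.15, adjusted p = 0.418) did not pass the test. The cardiomyocyte and endothelial marker sums in HCs went from means of 110414 and 72290 CPM at D0 to 56941 and 34785 CPM at D14. The mural sum in HCs went from 26837 to 14499 CPM and the fibroblast sum from 5038 to 11484 CPM. The part of these sums in the differences was not tested.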

How the results depend on the processing

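The count of 139 changes between D0 and D14 ranged from 113 with the replicate block (73 higher, 40 lower) to 159 with DESeq2 over all alternatives other than a minimum log2 change of 1, which left 67, and from 100 without replicate 3 of D14 to 145 without replicate 2 of D0 (102 higher and 43 lower), where 122 of the 139 kept their call. With only the 8 libraries in the fit the split was 98 higher and 25 lower. For D14 against D7 the count of 37 became 70 with DESeq2, 63 with library size only, 60 without a filter and 16 at that minimum, and 17 to 66 when a library was left out (17 without D7 replicate 3, 24 without D7 replicate 4, 22 without D14 replicate 4, 66 without D7 replicate 2). For D28 against D14 it became 28 at that minimum, and 25 to 78 when a library was left out (25 without D14 replicate 1, 30 without D14 replicate 3, 40 without D28 replicate 1). For FBs against HCs the count of 96 became 149 with library size only, and 63 to 125 when a library was left out (63 without FB D0 replicate 3, 64 without FB D0 replicate 4). Arm ratios went from 5 to 12 with a pseudocount of 5, to 0 with only the 8 libraries and to 27 with array weights, and from 0 without D0 replicate 3 to 19 without D0 replicate 2 (1 without D14 replicate 2, 3 without D14 replicate 3 and 9 without D14 replicate 4). The cause was not tested.

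Scaling by library size only moved the median log2 fold change by over 0.1, to -0.19 for D14 against D7 (7 higher, 56 lower), -0.17 for D28 against D14 (8 and 69) and -0.39 for FBs against HCs (42 and 107). RLE factors gave 16 higher and 38 lower for D14 against D7, and 51 and 37 for FBs against HCs. Without a filter the split was 87 and 35 for D14 against D0 and 100 and 19 for FBs against HCs. Log2 fold changes of D14 against D0 that missed the threshold changed sign without a filter for let-7a-5p (0.031), let-7f-5p (0.034) and miR-21a-3p (0.0090), and with only the 8 libraries for let-7a-5p (0.083), let-7f-5p (0.083), miR-23b-3p (0.0043) and miR-21a-3p (0.043). When a library was left out they ranged from -0.11 to 0.091 for let-7a-5p, -0.22 to 0.026 for let-7c-5p, -0.082 to 0.060 for let-7f-5p and -0.27 to 0.070 for miR-99a-5p, each positive only without D0 replicate 2, and from -0.35 to 0.18 for miR-21a-3p, positive without D0 replicate 3, D0 replicate 4 or D14 replicate 2. No named result that passed the test changed sign under these alternatives. Among the named changes under the replicate block, miR-574-5p, miR-26a-5p, miR-142a-3p, miR-199a-5p, miR-29a-5p, miR-92a-3p, miR-106b-5p and miR-376b-5p lost their call. Equal numbers at D0 and D14 correlated at -0.07 to 0.41, so the block shares only a number. With only the 8 libraries in the fit, miR-16-5p, miR-26a-5p, miR-29a-5p, miR-92a-3p, miR-106b-5p, miR-142a-3p, miR-181c-5p, miR-376b-5p, miR-497a-5p, miR-574-5p, miR-676-3p and miR-3074-5p lost their call. Depth limits replicate 2 of D0 most, with 2217588 counts.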
